A study of Arabidopsis thaliana with 10 samples.

Results

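The VQ motif family is a group of small plant proteins that share a short motif around a valine and a glutamine, and *JAV1*, the gene targeted by RNA interference in this series, belongs to it. The 4 family genes described here, *VQ12* (AT2G22880), *VQ10* (AT1G78410), *VQ32* (AT5G46780) and *IKU1* (AT2G35230), each with 1 probe set, were taken by name as members with signal above background. They are 4 of the 16 family genes with a named probe set, out of 34 in the family list. Another 5 of the 16 were also detected on at least 2 arrays, *VQ24* among them on all 10. RNA came from 21-day-old *Arabidopsis thaliana*, labelled as leaves, and was hybridised to 10 Affymetrix arrays, 1 for each genotype and condition. The genotypes were Ri17, a single transgenic line in the Col-0 background that carries RNA interference against *JAV1*, and wild-type Col-0. Each genotype was sampled untreated, after 100 µM methyl jasmonate (MeJA) for 1 h and 4 h, and 30 min and 60 min after 4 rosette leaves had been crushed with forceps (damage to about 30% of the leaf). MeJA and wounding shared the same untreated pair of arrays, a mock treatment with medium alone was not among them, and each genotype had 1 array in each condition. MeJA was described as given to seedlings grown in MS medium and wounding as done on rosette leaves, and the promoter of the RNA interference construct was not given in the sources used here.

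Many VQ proteins bind WRKY transcription factors, and several are phosphorylated by the stress-activated MAP kinases. JAV1 is a repressor of jasmonate defence that is degraded when jasmonate rises after injury. *VQ12* is known as a negative regulator of resistance to the fungus Botrytis cinerea, and *VQ10* encodes a partner of WRKY8 that promotes that resistance. *IKU1* is known from the seed, where it acts with the WRKY factor MINI3 and the receptor kinase IKU2 in endosperm growth. Expression of *JAV1* was not analysed here.

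The authors' detection call was Present, meaning that a transcript was detected, for 12971 to 13905 of the 22810 probe sets per array, and the median signal lay between 122.4 and 134.3. A floor of 37.7, below which 75% of all Absent signals lie, replaced any lower signal before log2 values were taken. Differences between conditions are log2 differences from limma with Benjamini-Hochberg adjustment over 15382 probe sets, given ± standard error, with genotype and condition as additive terms. Each is the mean of 2 differences between single arrays, 1 in each genotype. Where an array on the lower side lay under the floor the difference is a bound and is written "at least". Of 4 leaf markers only RCA, the activase of Rubisco, had a named probe set, and it had a signal of 17633.5 to 30932.6 on MeJA arrays and of 21227.3 to 36668.5 on the others. In whole tissue, a lower signal from fewer cells of a type cannot be told apart from less RNA per cell.

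*VQ12* was undetected in untreated plants and reached its highest signals after wounding. Its signal was 6333.9 in Ri17 and 5178.9 in Col-0 at 30 min, and 9090.2 in Ri17 and 8313.9 in Col-0 at 60 min, against 8.2 in untreated Ri17 and 47.7 in untreated Col-0, both called Absent. All 4 wounded arrays lay above every other array. It rose by at least 7.08 on the log2 scale at 30 min, or at least 135-fold (adjusted p = 3.17e-05), and by at least 7.68 at 60 min, or at least 205-fold (adjusted p = 1.77e-05). It was kept for testing through its 8 treated arrays, each called Present.

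Under MeJA *VQ12* also rose, to a lower level. The signal was 862.5 in Ri17 and 577.2 in Col-0 at 1 h, and 229.2 in Ri17 and 244.4 in Col-0 at 4 h, so that the MeJA arrays did not overlap with the untreated ones at either time. The log2 difference from untreated was at least 4.06 at 1 h (adjusted p = 1.07e-04) and at least 2.48 at 4 h (adjusted p = 3.88e-04). These p-values carry the same limit as those after wounding, since only treated arrays let *VQ12* be tested. From 1 h to 4 h of MeJA it fell by 1.58 ± 0.24 (adjusted p = 0.00867). It missed the threshold when 1 array was removed, whether Ri17 at 1 h (-1.28), Ri17 at 4 h (-1.45) or Col-0 at 4 h (-1.70), and with an offset in place of the floor (-1.51, adjusted p = 0.0514). At the matched time of 1 h, wounding gave a higher level than MeJA by 3.62 ± 0.24 (adjusted p = 1.87e-04). The order of *VQ12* levels ran from untreated through MeJA at 4 h, MeJA at 1 h and wounding at 30 min to wounding at 60 min. Of its neighbours in that order, wounding at 30 min exceeded MeJA at 1 h by 3.02 ± 0.24 (adjusted p = 4e-04), while the 2 wounding times did not pass (0.60 ± 0.24, adjusted p = 0.212).

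**Figure D1:**
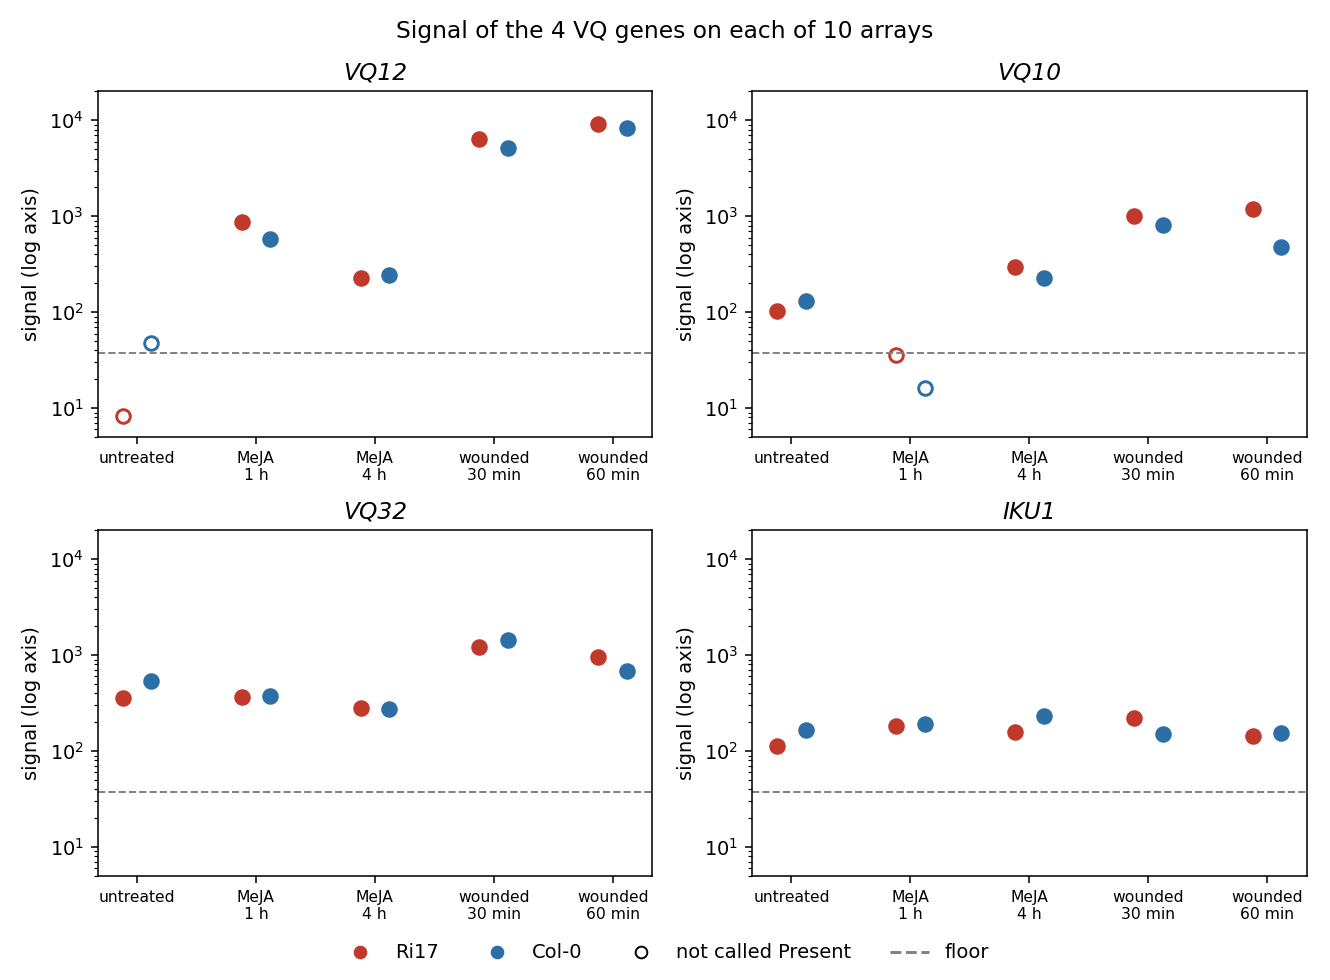
Signal (log axis) of *VQ12*, *VQ10*, *VQ32* and *IKU1* on each array by condition, with Ri17 in red left of Col-0 in blue. Open points were not called Present and the dashed line is the floor of 37.7. *VQ12* spans 8.2 to 9090.2, *VQ10* dips to 35.8 in Ri17 and 16.4 in Col-0 at 1 h of MeJA, *VQ32* is highest at 30 min of wounding, and *IKU1* stays between 112.4 and 233.8.

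*VQ10* rose after wounding, and under MeJA it was low at 1 h and above the untreated level at 4 h. At 30 min of wounding its signal was 1012.5 in Ri17 and 820.8 in Col-0, and at 60 min 1198.7 in Ri17 and 476.0 in Col-0, against 103.2 in untreated Ri17 and 130.3 in untreated Col-0. Every wounded array exceeded both untreated arrays. The rise was 2.98 ± 0.37 at 30 min, or 7.86-fold (adjusted p = 0.00169), and 2.70 ± 0.37 at 60 min, or 6.51-fold (adjusted p = 0.00175). The wounding times did not differ past the threshold (-0.27 ± 0.37, adjusted p = 0.722), and without the Col-0 array at 60 min the sign turned (0.35).

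At 1 h of MeJA *VQ10* was called Absent on both arrays, with a signal of 35.8 in Ri17 and 16.4 in Col-0, and it was Present on the 8 others. Its log2 level was lower than in untreated plants by at least 1.62, or at least 3.08-fold (adjusted p = 0.0143). Only arrays on which *VQ10* was higher let it be tested, and this holds for each comparison of it with 1 h of MeJA. The floor also made its 2 values at 1 h identical, which lowers the spread that the p-values rest on. The call was lost without the untreated Col-0 array (-1.20, adjusted p = 0.0924), the Ri17 array (-1.41) or the Col-0 array (-1.83) at 1 h. It was also lost with the floor at 60.9 (-0.93, adjusted p = 0.136) and with no filter on detection (adjusted p = 0.0721). At 4 h the signal was 293.7 in Ri17 and 226.8 in Col-0, above both untreated arrays, a rise of 1.15 ± 0.37 (adjusted p = 0.0429). That call was lost without any of 7 single arrays. These were the Ri17 untreated array (0.74, adjusted p = 0.232), the 2 arrays at 1 h of MeJA (1.15 each), the 2 arrays at 30 min of wounding (1.15 each), and the Ri17 (1.13) or Col-0 array (1.18) at 4 h. From 1 h to 4 h of MeJA *VQ10* rose by at least 2.78 (adjusted p = 0.00531). Without any 1 of the 4 MeJA arrays this lay between 2.57 and 2.98, with adjusted p from 0.0507 to 0.0565: 2.57 without the Ri17 and 2.98 without the Col-0 array at 1 h, and 2.75 without the Ri17 and 2.80 without the Col-0 array at 4 h.

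The order of *VQ10* levels was MeJA at 1 h, untreated, MeJA at 4 h, wounding at 60 min and wounding at 30 min. Wounding at 60 min exceeded MeJA at 1 h by at least 4.32 (adjusted p = 3.74e-04), and it exceeded MeJA at 4 h by 1.55 ± 0.37 (adjusted p = 0.0158). The last call was lost without the Ri17 array at 60 min (0.93), the Ri17 array at 4 h (1.57) or the Col-0 array at 4 h (1.53). The order of the MeJA times was opposite for *VQ12* and *VQ10*, a difference that was not itself tested: *VQ12* was higher at 1 h than at 4 h in both genotypes, and *VQ10* was lower at 1 h than at 4 h in both.

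*VQ32* had its highest signal at 30 min of wounding. It measured 1228.8 in Ri17 and 1455.3 in Col-0 at 30 min and 959.9 in Ri17 and 691.6 in Col-0 at 60 min, against 356.5 in untreated Ri17 and 538.7 in untreated Col-0. The wounded arrays did not overlap with the untreated ones. The rise was 1.61 ± 0.26 at 30 min, or 3.05-fold (adjusted p = 0.00552), and missed the threshold on removal of wounded Col-0 at 30 min (1.5, adjusted p = 0.0538) and in a fit on untreated and wounded arrays alone (adjusted p = 0.0549). At 60 min it was 0.89 ± 0.26, or 1.86-fold (adjusted p = 0.0396). That call held without the untreated Col-0 array or the Col-0 array at 60 min and was lost without any 1 of the other 8. Among these, the value was 0.55 without the Ri17 array at 60 min, 0.57 without the untreated Ri17 array, and 0.89 without any 1 of the 4 MeJA arrays or the 2 arrays at 30 min.

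Under MeJA *VQ32* measured 365.9 in Ri17 and 378.0 in Col-0 at 1 h and 283.2 in Ri17 and 274.4 in Col-0 at 4 h. The arrays at 4 h lay below both untreated arrays, and those at 1 h lay between them. Neither difference from untreated passed: -0.24 ± 0.26 at 1 h (adjusted p = 0.533) and -0.65 ± 0.26 at 4 h (adjusted p = 0.0886), the second passing without the untreated Ri17 array (-0.98, adjusted p = 0.039). The order of levels was MeJA at 4 h, MeJA at 1 h, untreated, wounding at 60 min and wounding at 30 min, in which neighbours passed the threshold only between untreated and wounding at 60 min. MeJA at 4 h against 1 h measured -0.42 ± 0.26 (adjusted p = 0.342), and wounding at 60 min against 30 min -0.71 ± 0.26 (adjusted p = 0.171). Wounding at 60 min exceeded MeJA at 1 h by 1.13 ± 0.26 (adjusted p = 0.0152). Removing the wounded Ri17 array (0.79), or from the MeJA arrays either Ri17 (1.15) or Col-0 (1.11), ended the call.

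*IKU1* passed the threshold in none of the comparisons, although it was Present on all 10 arrays. In Ri17 its signal was 112.4 untreated, 183.7 at 1 h and 159.3 at 4 h of MeJA, and 220.1 at 30 min and 144.6 at 60 min of wounding. In Col-0 it was 165.0 untreated, 190.2 and 233.8 at the MeJA times, and 152.1 and 153.2 at the wounding times. Treated and untreated arrays overlapped at both wounding times and at 4 h of MeJA, while at 1 h both MeJA arrays exceeded both untreated arrays. The log2 differences from untreated were 0.46 ± 0.28 at 1 h of MeJA (adjusted p = 0.264), 0.50 ± 0.28 at 4 h (adjusted p = 0.207), 0.43 ± 0.28 at 30 min of wounding (adjusted p = 0.35) and 0.13 ± 0.28 at 60 min (adjusted p = 0.786). Neighbours in the order of its levels, untreated, wounding at 60 min, wounding at 30 min, MeJA at 1 h and MeJA at 4 h, did not differ past the threshold. The largest gap between neighbours was -0.30 ± 0.28 for wounding at 60 min against 30 min (adjusted p = 0.607).

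**Figure D2:**
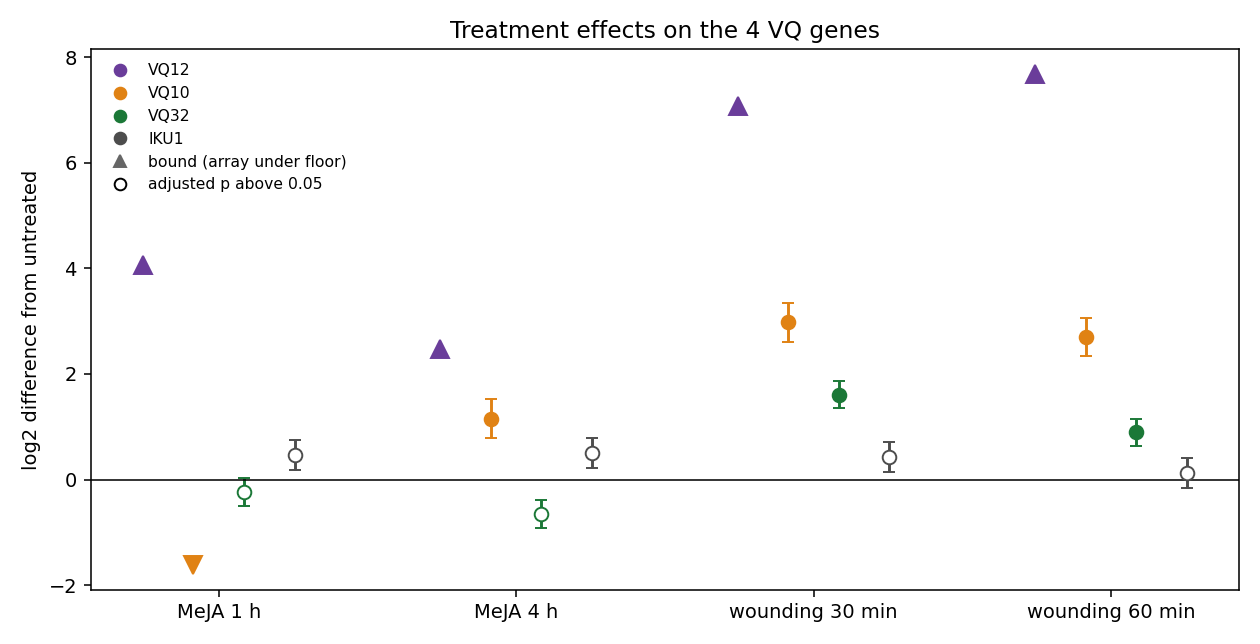
Log2 difference of each treatment from untreated for the 4 genes, from limma over both genotypes. Circles carry ± standard error, triangles are bounds because an array lay under the floor, and open symbols have an adjusted p above 0.05. *VQ12* lies highest in each treatment, at least 7.08 and 7.68 after wounding, and *VQ10* is below 0 only at 1 h of MeJA.

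Of the 3 genes Present on the untreated arrays, *VQ10* and *VQ32* rose at both wounding times, where 9.63% of all 15382 probe sets did at 30 min and 12.1% at 60 min. *VQ12* is left out of that count and of those against untreated that follow, because its detection on treated arrays alone decided that it was tested. The median log2 difference over all probe sets was -0.08 at 30 min and -0.14 at 60 min, and with each array centred on its median the value at 60 min was -0.02. At 1 h of MeJA none of the 3 rose and *VQ10* fell, where 15.7% of all probe sets rose and 15.8% fell. At 4 h of MeJA *VQ10* rose, 1 of the 3, where 18.8% of all probe sets did. Between the MeJA times *VQ10* rose and *VQ12* fell, 1 of the 4 genes each way, where 6.69% and 7.93% of probe sets did. Between the wounding times 0 of 4 passed, where 4.39% of all probe sets passed in either direction, although *VQ12* and *VQ32* had an unadjusted p of 0.0416 and 0.0277. An unadjusted p under 0.05 was found for 3265 of the 15382 probe sets there. The share of 4.39% was not stable. In a fit on untreated and wounded arrays alone 0 of 15382 probe sets passed, and with no detection filter 161 of 22746 did. Wounding at 60 min was higher than MeJA at 1 h for 3 of 4 genes, beside 14.2% of all probe sets. It was also higher than MeJA at 4 h for 3 of 4, beside 14.8%, and wounding at 30 min was higher than MeJA at 1 h for 3 of 4, beside 13.3%. These comparisons share arrays with each other. Those of *VQ10* with 1 h of MeJA also carry the limit given above, since only arrays on which it was higher let it be tested.

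Several other measures differed between MeJA and other arrays, some of them only in part. PYK10, a beta-glucosidase known from roots, had a signal of 1157.9 in Ri17 and 901.9 in Col-0 at 1 h of MeJA and of 2457.9 in Ri17 and 2275.1 in Col-0 at 4 h, against 22.0 to 243.8 on the 6 other arrays. With WER, Absent on all arrays, it was 1 of only 2 root markers of 5 with a probe set, and their summed signal was 924.3 to 2459.5 on MeJA arrays against 27.0 to 246.9 on the others. The seed albumin SESA1, the only one of 3 seed markers with a probe set, had 64.4 to 1209.9 on MeJA arrays and 36.4 to 111.9 on the others, so that these ranges overlapped. Poly-A controls, bacterial transcripts added to the RNA, were separate between MeJA and other arrays for 17 of 27 probe sets, with a median log2 difference of 0.535. The hybridisation controls, added later in the procedure, were separate for 2 of 9 probe sets, with a median of -0.398. The share of all probe sets that were separate in this way was not counted. The part of these measures in the MeJA values of the VQ genes, and in the comparisons of wounding with MeJA, was not tested. In those comparisons the treatment cannot be told apart from the material described, seedlings in MS medium against rosette leaves.

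The comparison of Ri17 with Col-0 asks whether RNA interference against *JAV1* altered its relatives. Over the 5 conditions the mean log2 difference was 0.11 ± 0.15 for *VQ12*, 0.33 ± 0.23 for *VQ10*, -0.07 ± 0.16 for *VQ32* and -0.14 ± 0.18 for *IKU1*, with adjusted p from 0.819 to 0.952. None of the 4 passed, and by limma 0% of the 15382 probe sets did, with 951 at an unadjusted p under 0.05 and none of the 4 among them. The values for *VQ12* and *VQ10* rest in part on arrays under the floor, and with an offset in place of the floor that for *VQ12* was -0.10.

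Within conditions only single arrays could be set against each other, with no test. *VQ10* at 60 min of wounding was the widest gap, with a signal of 1198.7 in Ri17 against 476.0 in Col-0, a log2 difference of 1.33 or 2.52-fold. It was the 1 gene of 4 past a log2 difference of 1 at 60 min, where 7.83% of all probe sets were. None of the 4 passed it in the other conditions, where the share of all probe sets was 5.56% untreated, 1.14% and 1.70% at 1 h and 4 h of MeJA and 4.50% at 30 min of wounding. In untreated plants *VQ10*, *VQ32* and *IKU1* had a lower signal in Ri17, by 0.34, 0.60 and 0.55 on the log2 scale, and *VQ12* was Absent in both genotypes.

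The authors' deposited table, which sets the probe pairs of the 2 arrays of a condition against each other, held an Increase in Ri17 for *VQ10* at 60 min of wounding (log2 ratio 1.3) and for *VQ32* at that time (0.5), where 14.5% of all probe sets were called Increase or Marginal Increase. In the authors' deposited table *VQ12* was called increased at 1 h of MeJA (0.5, background 6.56%) and at 30 min of wounding (0.4, background 11.2%), and *VQ10* at 4 h of MeJA (0.5, background 8.20%). In untreated plants the authors' deposited table had no Increase among the 4, beside 13.0% of all probe sets, and a Decrease for *VQ32* (-0.7), where 14.4% of all probe sets were called Decrease or Marginal Decrease. These calls compare 2 arrays, not the genotypes.

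The response to treatment was then compared between genotypes in a fit with an interaction term. The wounding response in Ri17 minus that in Col-0 was 1.15 ± 0.50 for *VQ10*, 0.78 ± 0.40 for *IKU1*, 0.71 ± 0.38 for *VQ32* and 0.55 for *VQ12*, with adjusted p from 0.348 to 0.503. The MeJA response differed by 0.52 for *VQ10*, 0.25 ± 0.40 for *IKU1*, 0.60 ± 0.38 for *VQ32* and 0.58 for *VQ12*, with adjusted p from 0.539 to 0.816. The values given without an error depend on the floor: untreated *VQ12* was Absent in both genotypes and at the floor in Ri17, and *VQ10* was at the floor on both arrays at 1 h of MeJA. None of the 4 passed in either, where limma called 0.00650% of probe sets for wounding, 1 of 15382, and 0% for MeJA. At an unadjusted p under 0.05, 2463 and 1915 probe sets passed in these 2 comparisons and none of the 4 genes did. In single arrays the rise of *VQ10* at 60 min of wounding was 3.54 in Ri17 and 1.87 in Col-0, the widest gap among the responses of *VQ10*, *VQ32* and *IKU1*, and each genotype's responses share its 1 untreated array.

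**Figure D3:**
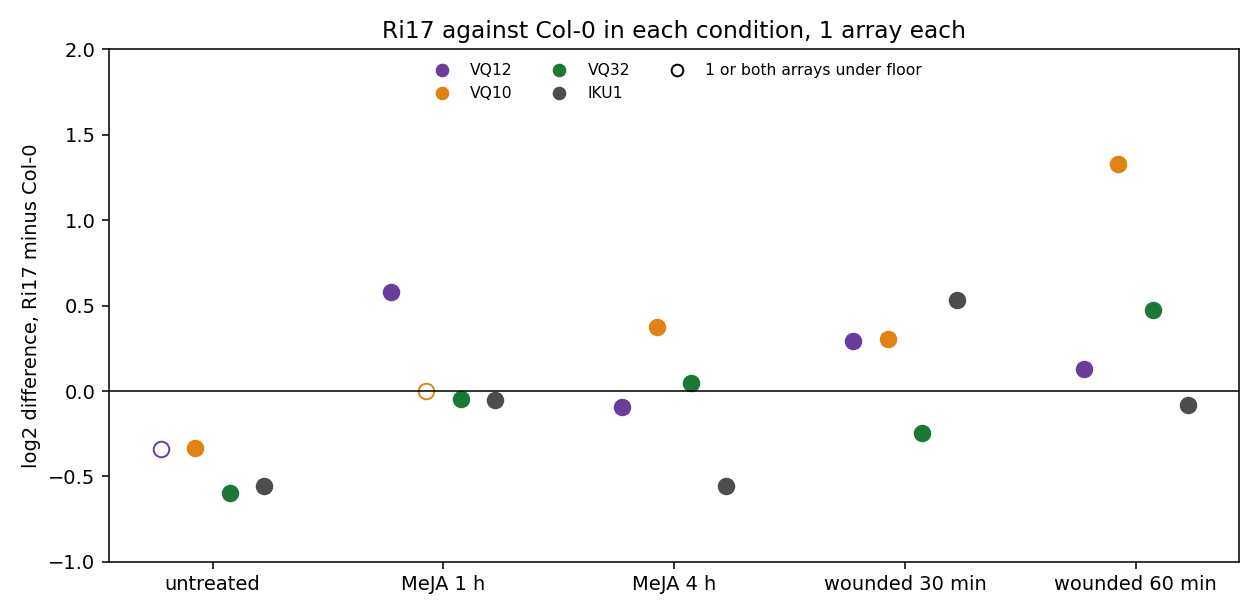
Log2 difference of Ri17 minus Col-0 in each condition, 1 array of each, for the 4 genes. Open points rest on an array under the floor. The values lie between -0.60 and 0.58 apart from *VQ10* at 60 min of wounding, at 1.33.

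Of the 12 other family genes with a named probe set, 5 were Present on at least 2 arrays and were tested. *VQ24* (AT3G56880) was Present on all 10 arrays and had its highest signals at 30 min of wounding, 7484.9 in Ri17 and 8147.3 in Col-0, and 5548.8 in Ri17 and 4792.9 in Col-0 at 60 min, against 1608.8 in untreated Ri17 and 1965.9 in untreated Col-0. It rose by 2.13 ± 0.19 at 30 min (adjusted p = 4.62e-04) and by 1.54 ± 0.19 at 60 min (adjusted p = 0.00122). The deposited description of its probe set names the sequence of *VQ15* as similar, and cross-hybridisation between the transcripts was not tested.

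At 1 h of MeJA *VQ24* measured 2927.9 in Ri17 and 2739.6 in Col-0, a rise of 0.67 ± 0.19 over untreated (adjusted p = 0.0339). The call ended on removal of any 1 of 7 arrays, which gave 0.62 for Ri17 and 0.73 for Col-0 at 1 h, 0.49 for untreated Ri17, and 0.67 for each array at 4 h of MeJA and at 30 min of wounding. It also ended in a fit on untreated and MeJA arrays alone (adjusted p = 0.0627). At 4 h it measured 1500.5 in Ri17 and 1363.5 in Col-0, a fall of 0.99 ± 0.19 from 1 h (adjusted p = 0.0171), which was lost without any 1 of the 4 MeJA arrays: -0.93 without the Ri17 and -1.04 without the Col-0 array at 1 h, -1.07 without the Ri17 and -0.90 without the Col-0 array at 4 h. The same fit gave an adjusted p of 0.0525 for it.

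*VQ11* (AT1G80450) was Absent in untreated plants, at 18.1 in Ri17 and 6.8 in Col-0. It reached 202.4 in Ri17 and 190.4 in Col-0 at 30 min of wounding and 356.2 in Ri17 and 201.9 in Col-0 at 60 min. The rise was at least 2.38 (adjusted p = 7.19e-04) and at least 2.83 (adjusted p = 2.19e-04). It was kept through 5 Present calls, 4 of them on the wounded arrays, so that a difference was a condition of its being tested. The floor also made its untreated values identical in both genotypes, which lowers the spread that the p-values rest on.

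*VQ28*, *VQ30* and *VQ6* passed against untreated in none of the 4 treatments with all arrays in the fit. *VQ28* was Absent on all 4 MeJA arrays, between 8.5 and 23.2, against 73.6 in untreated Ri17 and 87.9 in untreated Col-0, and the log2 difference at each time, -1.09 with the MeJA arrays at the floor, did not pass (adjusted p = 0.199 and 0.185). The same -1.09 passed in a fit on untreated and MeJA arrays alone (adjusted p = 0.016 at 1 h and 0.0129 at 4 h) and without either array at 60 min of wounding. *VQ28* was kept through 4 Present calls, none of them on a MeJA array, so that arrays on which it was higher decided that it was tested. The floor also made its 4 MeJA values identical, which lowers the spread that the p-values rest on. At 60 min of wounding *VQ28* had a signal of 194.8 in Ri17 and 32.6 in Col-0. Its log2 difference from untreated was 0.09 with both arrays and 1.24 without the Col-0 array. *VQ30* lay between 41.3 and 75.1 and *VQ6* between 63.1 and 131.2. Leaving out *VQ11*, 1 of the other 4, *VQ24*, rose at each wounding time, where 9.63% and 12.1% of all probe sets did. At 1 h of MeJA *VQ24* alone rose, where 15.7% of all probe sets did, and at 4 h none of the 5 passed, where 18.8% of all probe sets rose. With an offset in place of the floor *VQ11* passed at 4 h (1.22, adjusted p = 0.00517). The other 7, *VQ2*, *VQ17*, *VQ20*, *VQ25*, *VQ27*, *VQ31* and *VQ34*, were Present on at most 1 array and were not tested.

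**Figure D4:**
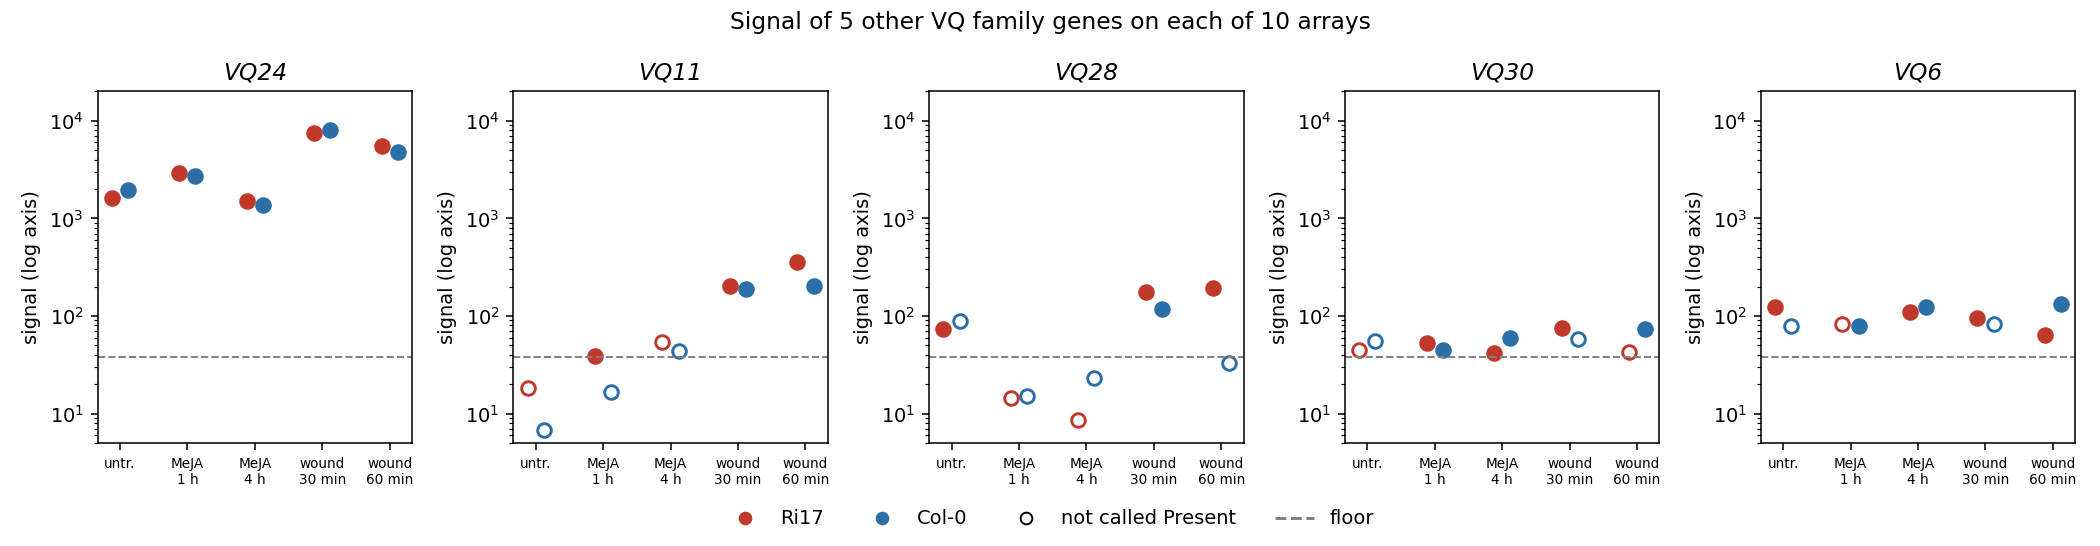
Signal (log axis) of *VQ24*, *VQ11*, *VQ28*, *VQ30* and *VQ6* on each array by condition, with Ri17 in red left of Col-0 in blue. Open points were not called Present and the dashed line is the floor of 37.7. *VQ24* and *VQ11* are highest on the wounded arrays, and *VQ28* is under the floor on all 4 MeJA arrays.

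Of 13 genes listed as partners of VQ proteins or as genes of the IKU1 pathway, 5 had a probe set. *MPK3*, a stress-activated kinase that phosphorylates VQ proteins, measured 4973.8 in Ri17 and 3543.6 in Col-0 at 30 min of wounding, against 1146.9 in untreated Ri17 and 1610.6 in untreated Col-0. It rose by 1.63 ± 0.30 (adjusted p = 0.00983), which missed the threshold when either wounded array of that time was removed, Ri17 (1.49) or Col-0 (1.76). It was also lost with no detection filter (adjusted p = 0.0537) and with untreated and wounded arrays alone (adjusted p = 0.0654). At 60 min its log2 difference was 0.74 ± 0.30 (adjusted p = 0.114), which passed without the untreated Col-0 array (1.22). At 1 h and 4 h of MeJA it was -0.70 and -0.66, and both passed without the untreated Ri17 array (-1.18 and -1.14). *MPK6*, its close relative, and *MPK4*, the kinase that binds the family protein MKS1, passed in none of the 4 treatments. *SHB1*, known as an activator of *IKU2* and *MINI3* in the seed, was Absent on 8 arrays and Present at 60 min of wounding, at 109.9 in Ri17 and 136.9 in Col-0. It was tested only because of those 2 arrays, with a log2 difference of at least 1.70 (adjusted p = 0.00154). The floor made its untreated and MeJA values identical, which lowers the spread that its p-values rest on. At 30 min, where both arrays were Absent, the bound was 1.20 (adjusted p = 0.00983), and it missed the threshold without the Col-0 array of 30 min (0.91) or the untreated Col-0 array (1.08), with the floor at 60.9 (0.51, adjusted p = 0.139), and with untreated and wounded arrays alone (adjusted p = 0.0565). *IKU2* was Present on none of the arrays.

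Genes whose log2 signal followed each member over the 10 arrays were taken as the 3 with the highest Pearson r among 8304 named genes, as a description. The arrays share conditions, so that genes with the same treatment response correlate. For *VQ12* these were AT1G15010 (r = 0.994, signal 55.5 to 4144.5), AT1G76360, described in the deposited files as a putative protein kinase (r = 0.987), and AT4G24380 (r = 0.984). For *VQ10* they were AT1G18390, described as a putative wall-associated kinase (r = 0.982), AT5G25930, described as like a receptor kinase (r = 0.965), and AT4G01130, described as a putative acetyltransferase (r = 0.963). For *VQ32* they were AT3G10930 (r = 0.982), AT5G41100 (r = 0.980) and AT4G32060 (r = 0.979). The best r for *IKU1* was 0.879, with AT5G17370. Among the members themselves, r was 0.736 between *VQ12* and *VQ32*, 0.732 between *VQ10* and *VQ32* and 0.639 between *VQ12* and *VQ10*, while for *IKU1* with the others it lay between -0.074 and 0.177.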

How the data were processed

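Total RNA was hybridised to 10 Affymetrix Arabidopsis arrays, 1 per genotype and condition. The deposited signal intensities are GCOS output, per the submitters' processing notes, on a linear scale, with a trimmed mean of 498.6 to 499.6 per array. The authors' deposited tables of Ri17 over Col-0 hold a log2 ratio, a change call and a change p-value for each condition, per the file headers. Signals under the floor of 37.7 were raised to it and log2 values taken. Probe sets with a Present call on 2 or more arrays, 15382 of 22810, were tested with limma 3.58.1 in R 4.3.3 (adjusted p under 0.05), with genotype and condition as additive terms (4 residual degrees of freedom) or with an interaction of genotype and kind of treatment (2). No group was repeated, so p-values measure the spread left by these models, and precision is limited by how few arrays there are. That spread is pooled over conditions. The genotypes lay at least 1 log2 apart for 1.14% of probe sets at 1 h of MeJA. At 60 min of wounding they did for 7.83%. With untreated and wounded arrays alone, calls fell from 3098 to 1467 at 30 min and from 4341 to 2628 at 60 min. With untreated and MeJA arrays alone they fell from 4840 to 4347 at 1 h and from 5769 to 5191 at 4 h. The fits were tested on simulated data.

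Gene names came from the platform annotation, which gave 1 gene for 13513 probe sets, several for 503 and none for 8794. Of the 13513, 13436 matched the TAIR10.1 annotation, and for 5 more the name was read from the deposited description. Named genes were the 4 members, every other family gene and listed partner with a probe set, and the 3 genes most like each member. Members and lists were chosen with earlier results of these data known. The alternatives were 2 other scalings, 2 other treatments of low signals, 2 other detection filters, another variance model, fits on 1 kind of treatment, no genotype term, and leaving out each array. The comparisons of wounding at 60 min with MeJA at 4 h and of wounding at 30 min with MeJA at 1 h were added after seeing the data.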

Additional observations from a re-analysis of the deposited data

Results flagged for a closer look

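In 3 of 16 pairs of a member and a treatment, the single-array response ran in opposite directions in the genotypes. The difference was not tested for the single condition, and the share of all probe sets with opposite responses was not counted. In each case the response in 1 of the genotypes was small. For *IKU1* at 30 min of wounding the log2 response was 0.97 in Ri17 and -0.12 in Col-0, a difference of 1.09. At 60 min of wounding *IKU1* had 0.36 in Ri17 and -0.11 in Col-0, a difference of 0.47. The authors' deposited table gave a log2 ratio of -0.1 with no change for *IKU1* between the genotypes at 30 min of wounding, where the deposited signals give 0.53. For *VQ32* at 1 h of MeJA the response was 0.04 in Ri17 and -0.51 in Col-0, a difference of 0.55. Each case rests on 4 arrays, and the untreated pair is shared.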

How the results depend on the processing

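Of 340 values of the members under 10 other settings with all arrays, 329 kept their direction and side of the threshold. These leave out the comparisons added after seeing the data. This count, and that for single arrays left out, include values far from the threshold, such as those of *IKU1*, which could hardly change side. With the floor at 60.9, *VQ10* at 1 h of MeJA (-0.93) and 4 h (1.15) and *VQ32* at 60 min of wounding (0.89) no longer passed. With no detection filter, *VQ10* at 1 h (-1.62) and 4 h of MeJA (1.15) and *VQ32* at 60 min of wounding against untreated (0.89) and against MeJA at 1 h (1.13) no longer passed. With untreated and wounded arrays alone *VQ32* was lost at 30 min (1.61) and 60 min (0.89). With log2(signal + 16), *VQ12* at 4 h against 1 h of MeJA was lost (-1.51) and *VQ12* in Ri17 against Col-0 turned sign (-0.10). In the added comparisons *VQ10* at 60 min of wounding against MeJA at 4 h was lost with no detection filter (1.55), and *IKU1* at 30 min of wounding against 1 h of MeJA turned sign with median centring (0.10). Of the other family genes, 1 passed at 4 h of MeJA with log2(signal + 16) (*VQ11*) and 1 with untreated and MeJA arrays alone (*VQ28*), against 0 in the report, and 0 passed at 4 h against 1 h of MeJA with those arrays alone. The cause of these changes was not tested.

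Without 1 array, 344 of 384 member values kept direction and side. *VQ10* ranged from -2.04 to -1.20 at 1 h of MeJA, 0.74 to 1.57 at 4 h, 2.57 to 2.98 at 4 h against 1 h, and -0.90 to 0.35 between wounding times. *VQ12* ranged from -1.87 to -1.28 at 4 h against 1 h of MeJA and 0 to 0.23 in Ri17 against Col-0. *VQ32* ranged from -0.56 to 0.09 at 1 h and -0.98 to -0.33 at 4 h of MeJA, 1.28 to 1.94 at 30 min and 0.55 to 1.24 at 60 min of wounding, 0.79 to 1.47 at 60 min against MeJA at 1 h, and -0.21 to 0.06 in Ri17 against Col-0. *IKU1* ranged from -0.21 to 0.30 at 4 h against 1 h of MeJA, -0.13 to 0.39 at 60 min of wounding, -0.72 to 0.12 between wounding times, and -0.45 to 0.39 at 30 min of wounding against MeJA at 1 h (0.03 without the Ri17 array at 1 h). The count of other family genes ranged from 0 to 2 at 1 h of MeJA, 0 to 1 at 4 h, 0 to 1 at 4 h against 1 h, and 1 to 3 at 60 min of wounding against MeJA at 1 h. With an array left out, the lone array of its condition is assumed to vary like the others. No analysis paired by replicate number was possible because each group held 1 array, so that such a number cannot be a block beside genotype. The fit already pairs conditions within a genotype, and without the genotype term no member's call against another condition changed. In the file headers the untreated and wounded arrays of a genotype share a number and the MeJA arrays carry others, and what these numbers stand for is not given in the sources used here.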
